A study of Vitis vinifera with 60 samples.

Results

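Glera is a white-skinned grapevine cultivar (Vitis vinifera) of north-eastern Italy, best known as the base of Prosecco. It is set here against the other 4 white cultivars of the series, Garganega, Moscato bianco, Passerina and Vermentino. The Glera samples were taken by their label and make up 12 of the 60 libraries, as 3 libraries at each of 4 berry stages. Each of the other cultivars also had 12 libraries. All vines stood in 1 experimental vineyard and were sampled in a single season, so a cultivar here is 1 planting in 1 year. The tissue was berry pericarp, that is, whole berries freed of seeds. In order of development, the stages are called Pea (berries of pea size), Touch (berries that begin to touch each other), Soft (softened berries) and Harv (ripe for picking). The deposited table holds FPKM, a fragment count corrected for the length of the transcript and the number of mapped fragments, as 1 authors' mean for each cultivar and stage. Glera therefore has 4 of 20 columns, and the spread between libraries is unknown for every value below.

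A grape berry first grows green, hard and acid, and then softens, takes up sugar and loses acid from the onset of ripening to harvest. Much of its RNA changes at that switch. Cultivars pass through the same phases but differ in aroma, acidity and timing, and some carry gene copies or regulatory alleles that others lack. A gene can thus be higher or lower in a cultivar at all stages, at a single stage, or in how it changes with ripening, and Glera was examined in these ways in turn.

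The table pairs its identifiers with no names, and 0 of its 29971 identifiers occur in the annotation table at hand, so genes are given by identifier, without function. In the naming of these identifiers the first number is the chromosome (00 for sequence assigned to none) and the number after s a scaffold. Of 29287 rows, 20833 reached 1 FPKM in at least 1 column and were kept. Glera reached 1 FPKM in 17746 genes at Pea, 17211 at Touch, 16133 at Soft and 15636 at Harv. At Harv this was the lowest number of the 5 cultivars, and at Soft the highest. The difference of Glera from the mean of the other 4 cultivars was taken for each gene on the log2(FPKM + 1) scale. Its median over all genes was at most 0.03 in size at any stage.

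At Touch and Soft, Glera lay close to the average of the other cultivars. Its root mean square difference from the mean of the others was 0.50 (log2) at Touch, against 0.53 to 0.62 when each other cultivar was treated alike. At Soft it was 0.52, against 0.56 to 0.58. At both stages Glera had the smallest value of the 5. At Pea it stood at 0.55, within the 0.52 to 0.57 of the others, and at Harv at 0.56, within 0.54 to 0.58. In Glera 67.9% of genes at Touch and 67.3% at Soft lay inside the range of the other 4 cultivars, against 53.4% to 65.9% and 56.3% to 61.0% in them. These values share columns between cultivars and are a description without a test. On the line from the mean Pea to the mean Harv profile of the others (0% to 100%), Glera stood at 5.24% at Pea, 27.0% at Touch, 74.3% at Soft and 100.5% at Harv. Each other cultivar was placed likewise on a line built from its own other 4. These positions were -0.70% to 4.58% at Pea, 14.5% to 34.8% at Touch, 66.3% to 79.5% at Soft and 92.9% to 102.0% at Harv. Glera thus had the largest value of the 5 at Pea and the middle one at Soft. The 5 lines differ, so this is not a ranking on a common scale.

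Over all stages, 604 genes differed between Glera and the mean of the other 4 cultivars, 290 of them higher and 314 lower in Glera. That is 2.9% of the genes tested (1.39% higher and 1.51% lower). Stages were paired and all 20 columns entered a limma model with stage and cultivar as terms. Calls needed an adjusted p (Benjamini-Hochberg) under 0.05 together with a difference of at least 2-fold on the log2(FPKM + 1) scale. The median difference was 1.35 among the higher genes and -1.34 among the lower ones, against -0.01 over all genes. At least 4-fold differences were found for 45 higher and 50 lower genes.

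The p-values weigh a difference against its unevenness over stages, not against the spread among cultivars. With cultivar as a random effect, through a single within-cultivar correlation shared by all genes, 51 higher and 40 lower genes were called. With the spread among the other 4 cultivars placed in the residual, 148 and 155 were called. The latter counts the columns of a cultivar as independent, and neither setting is a test on replicate cultivars. As 1 cultivar among 5, Glera could not reach an exact p below 0.2 for any single value.

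**Figure D1:**
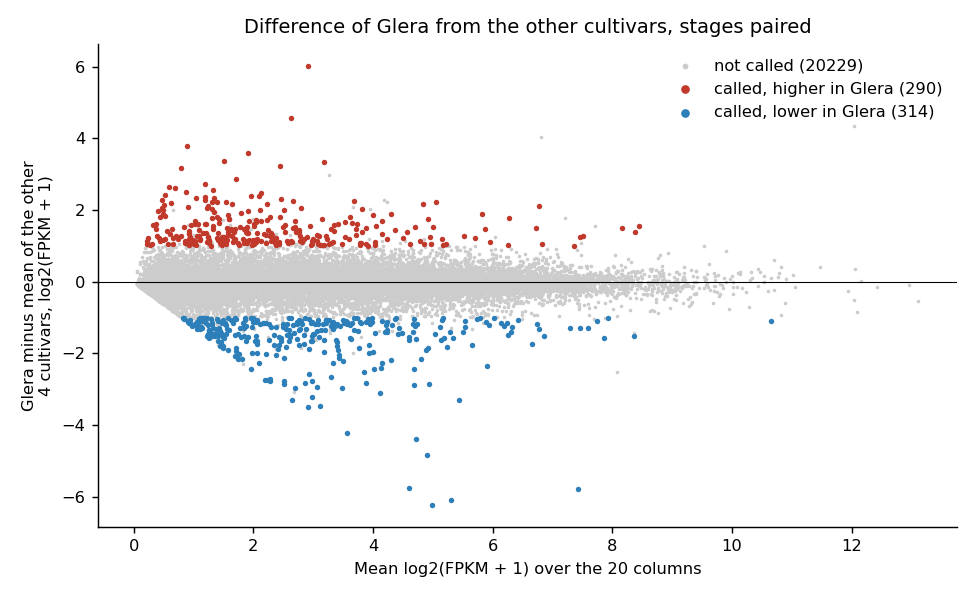
Each point is 1 of 20833 genes. The x axis gives its mean log2(FPKM + 1) over the 20 columns and the y axis the difference of Glera from the mean of the other 4 cultivars. The 290 called higher genes are red and the 314 called lower genes blue; the differences of called genes run from -6.23 to 6.02.

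Being called did not always mean that Glera stood outside the other cultivars. Glera was above the highest of the others at all 4 stages in 156 of the 290 higher genes, at 3 stages in 61, and at none in 12. It was below all of them at every stage in 155 of the 314 lower genes, at 3 stages in 72, and at none in 28. By the mean over stages, the highest of the other cultivars could be any of them. Among the higher genes it was Passerina in 86, Garganega in 76, Vermentino in 68 and Moscato bianco in 60. Among the lower genes the lowest of the others was Moscato bianco in 102, Vermentino in 89, Passerina in 67 and Garganega in 56. Called genes were of low level more often than others, with 39.1% at a mean of at least 10 FPKM, against 50.4% of all genes kept. They held no 0 in any column in 77.5% of cases, against 89.3% of all genes kept. In 99 of the lower genes Glera stayed under 1 FPKM at every stage, and in 26 of the higher genes all the other cultivars did.

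Among called genes with no value listed at 0, at least 10 FPKM on the higher side and Glera outside the range of the others at all 4 stages, the one with the largest difference upwards was VIT_12s0035g01760. It stood in Glera at 124 FPKM at Pea, 175 at Touch, 256 at Soft and 355 at Harv. In Moscato bianco it stood at 13.5, 15.4, 13.9 and 18.4 FPKM at these stages, and in Garganega, Passerina and Vermentino at no more than 3.17 FPKM anywhere. Glera was 9.18-fold above Moscato bianco at Pea and 19.3-fold at Harv. The groups did not overlap, which the choice of the gene required. The log2 difference over all stages was 6.02 (SE 0.22, limma adjusted p = 2.6e-10).

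The next identifier in the numbering, VIT_12s0035g01770, had the second largest difference under the same conditions. It stood in Glera at 9.83 FPKM at Pea, 12.0 at Touch, 15.8 at Soft and 27.7 at Harv. Moscato bianco was again second, with 2.56, 3.37, 2.91 and 4.74 FPKM, and the other 3 cultivars stayed at or below 1.29 FPKM. The difference was 2.87 (SE 0.17, limma adjusted p = 4.0e-08). Both genes had the same cultivar order at the top at every stage, with Glera first and Moscato bianco second. Near-identical copies can share fragments, so the levels of neighbours are not fully independent.

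Of the lower genes under these conditions, VIT_03s0063g02360 had the largest difference and VIT_03s0063g02380 the next. VIT_03s0063g02360 stood in Glera at 15.3 FPKM at Pea, 16.5 at Touch, 2.05 at Soft and 1.77 at Harv. The other cultivars ranged from 598 to 4274 FPKM at Pea, 679 to 2604 at Touch, 378 to 1001 at Soft and 6.90 to 118 at Harv. Glera thus held 2.55% of the lowest other cultivar at Pea, 2.43% at Touch and 0.542% at Soft. At Harv, where the gene was low in every cultivar, it held 25.6%. The difference was -5.78 (SE 0.69, limma adjusted p = 4.3e-05).

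Its near neighbour in the numbering, VIT_03s0063g02380, followed the same course. Glera had 3.12 FPKM at Pea, 1.17 at Touch, 0.546 at Soft and 0.233 at Harv. The other cultivars had 47.8 to 1246 FPKM at Pea, 31.8 to 638 at Touch, 20.02 to 241 at Soft and 0.787 to 5.90 at Harv. The difference was -4.84 (SE 0.68, limma adjusted p = 0.0002), and the call was lost with cultivar as a random effect (adjusted p = 0.21). Under that setting the other 3 genes kept an adjusted p under 0.05.

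**Figure D2:**
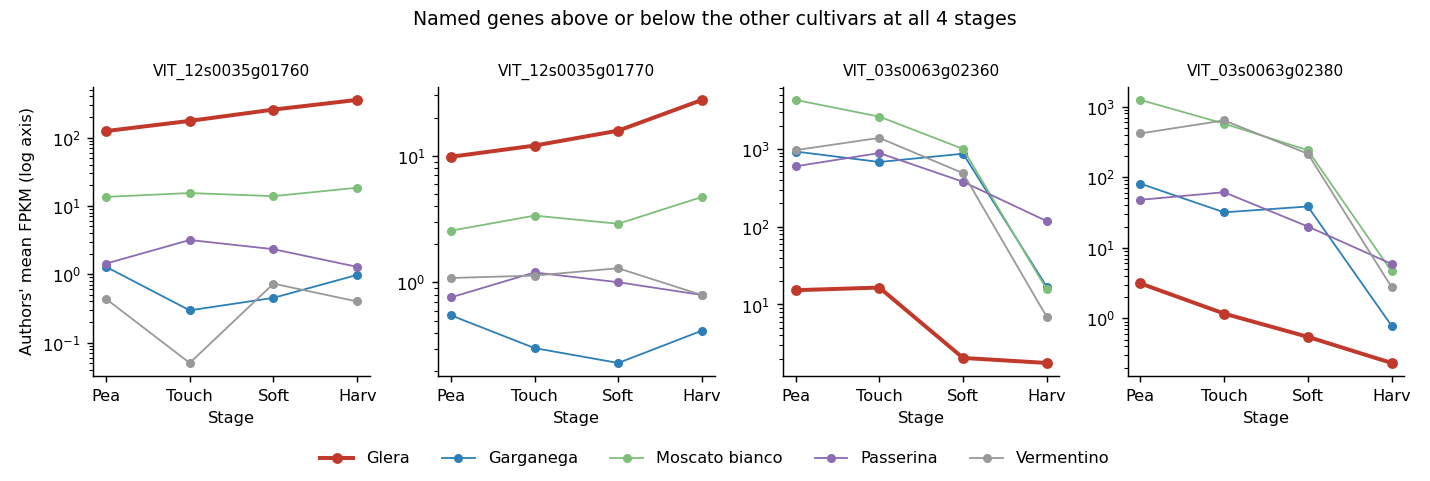
Authors' mean FPKM (log axis) at the 4 stages for the 2 higher and the 2 lower genes with the largest difference among called genes with no value listed at 0, at least 10 FPKM on the higher side and Glera outside the range of the others at all 4 stages; each line is a cultivar, with Glera thick and red. For VIT_12s0035g01760 Glera stands at 355 FPKM at Harv, with Moscato bianco next at 18.4; for VIT_03s0063g02360 Glera stays at or below 16.5 FPKM.

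Called genes were often neighbours in the numbering. Called genes of the same direction within 3 rows of each other, in identifier order on a scaffold, were taken as a run. Runs of at least 2 held 79 of the 290 higher genes (27.2%) and 77 of the 314 lower genes (24.5%). For the other 4 cultivars, tested alike, the shares were 17.8% to 36.3% of higher and 20.6% to 27.4% of lower genes, so Glera lay among them.

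In Glera 8 runs of higher genes and 4 of lower genes had at least 3 members. On scaffold 14s0036 of chromosome 14, 4 adjoining genes were all higher in Glera, by 1.17 to 3.80 (log2). Their means over stages were 4.95 to 15.5 FPKM in Glera, against 0.159 to 3.26 FPKM in the others. On 09s0002 of chromosome 9, 2 separate runs of 4 higher genes were found, with differences of 1.25 to 2.01 in the first and 1.604 to 1.997 in the second. In the second run all 4 genes were above the other cultivars at every stage. Both named lower genes belong to a run of 4 on scaffold 03s0063, with differences of -5.78 to -1.05.

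A further run of 4 lower genes, on scaffold 19s0014 of chromosome 19, was close to silent in Glera, with means of 0.00945 to 0.539 FPKM, against 3.39 to 58.6 FPKM in the others. In 0 of these 4 genes was Glera the lowest cultivar throughout, so at least 1 other cultivar was as low at some stage. On 01s0011 of chromosome 1 the 4 genes of a run had means of 0.069 to 2.10 FPKM in Glera, against 6.08 to 29.1 FPKM in the others.

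The share of called genes was uneven over chromosomes. On chromosome 9, 29 of 831 genes were higher in Glera (3.49%, against 1.39% of all genes), while 11 were lower (1.32%, against 1.51%). Scaffold 09s0002 alone held 24 of these higher genes among its 574 genes, or 4.18%. Of the scaffolds with at least 100 genes kept, 14s0030 had the largest share of higher genes, with 10 of 143 (6.99%), followed by 12s0034 with 8 of 119 (6.72%). For lower genes it was 03s0038, with 13 of 329 (3.95%). The lowest shares were on chromosome 17 for higher genes, with 3 of 863, and on chromosome 4 for lower genes, with 5 of 1073. These counts carry no test, since neighbours are not independent.

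A stricter rule asked, stage by stage, for a gap of at least 2-fold between Glera and the nearest of the other cultivars, in the same direction throughout. It was met by 23 genes above (0.11% of genes) and 21 below (0.101%). Without Moscato bianco the numbers were 38 above and 41 below, without Vermentino 36 and 39, and without Passerina 37 above. The rule already fixes the direction and size of a call over stages, so only the adjusted p was free to vary. All 23 and all 21 were also called. Of these, 11 of the higher and 18 of the lower genes had no value listed at 0. In 9 of the 23 all other cultivars stayed under 1 FPKM, and in 8 of the 21 Glera did. The other cultivars, counted only with values of 0 included, had 12 to 15 genes above and 9 to 30 below. On that count Glera had the most genes above, while Moscato bianco and Vermentino had more below. Listing at 0 can be a failed estimate in such a table. Only 2 genes were listed at 0 in Glera at all 4 stages with at least 1 FPKM in all 16 other columns, and 0 genes showed the reverse. At single stages, 3 to 8 genes were listed at 0 in Glera with at least 1 FPKM in every other cultivar. Counted alike, the numbers were 18 to 20 in Moscato bianco and 4 to 14 in Garganega, Passerina and Vermentino.

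Compared with the other cultivars, called genes were about as many in Glera over stages, but fewest in its ripening change. The same contrast gave 690 genes for Garganega, 777 for Moscato bianco, 523 for Passerina and 692 for Vermentino, against the 604 of Glera. All these contrasts share their columns, so the counts are not independent and were not tested against each other.

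**Figure D3:**
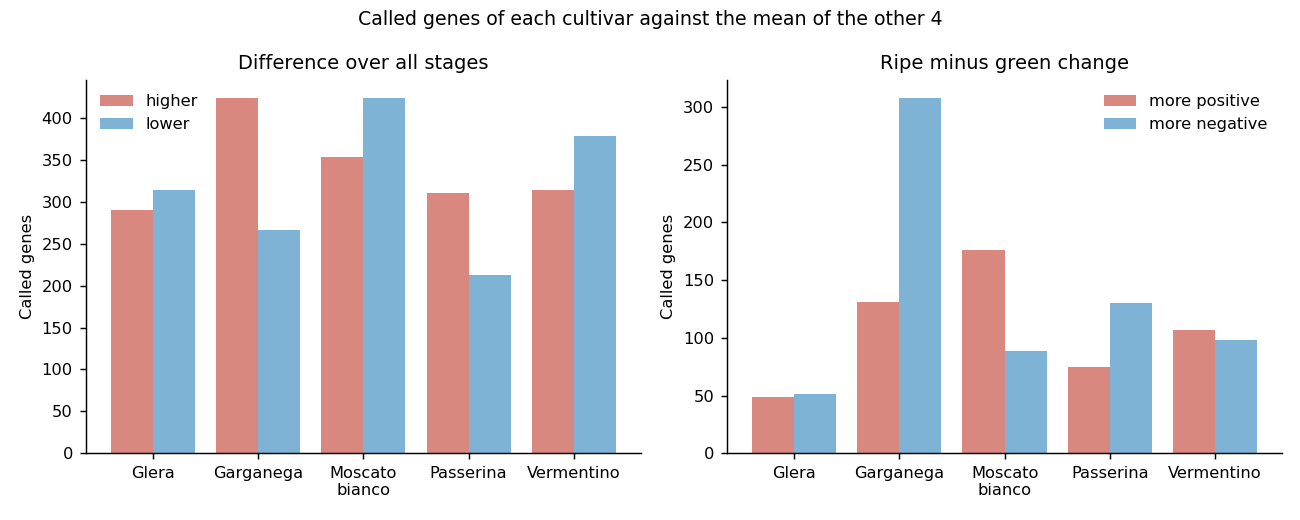
Number of called genes (y axis) when each cultivar is set against the mean of the other 4, over all stages (left) and for the change from green to ripe stages (right); bars start at 0. Glera has 290 and 314 genes on the left, and 49 and 51 on the right, its right-hand total of 100 being the lowest of the 5.

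The number of genes that set Glera and a second cultivar apart from the other 3 varied with the stage. Each number is out of the 20833 genes kept. At Pea, 101 genes were at least 2-fold lower in both Glera and Moscato bianco than in the lowest of the other 3 cultivars. With Garganega, Passerina and Vermentino as the partner the numbers at Pea were 32, 34 and 44. At Harv, Glera shared 77 such lower genes with Vermentino and 70 with Moscato bianco, but 23 with Garganega and 25 with Passerina. For genes higher in Glera and a partner, Garganega led at Pea with 58 genes and Moscato bianco at Soft with 53. Over all genes the nearest cultivar was Moscato bianco at Pea, with a root mean square distance of 0.67 (log2), against 0.69 to 0.71 for the others. It was Vermentino at Harv, with 0.68 against 0.70 to 0.73. At Touch Passerina and Vermentino were both at 0.65, and at Soft all 4 cultivars lay between 0.69 and 0.70. These distances lie close together and have no error. Pairs without Glera were not counted. The shared numbers were not repeated with another pseudocount or with a cultivar left out.

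In pea-sized berries, 147 genes (0.706%) in Glera exceeded the highest other cultivar at least 2-fold, and 156 (0.749%) fell short of the lowest one by as much. At Touch the numbers were 103 (0.494%) and 95 (0.456%), at Soft 121 (0.581%) and 100 (0.48%), and at Harv 136 (0.653%) and 135 (0.648%). These counts depend on the cultivars compared and on the pseudocount. With 1 other cultivar left out they ran from 195 to 280 above and 213 to 335 below at Pea, the highest being 280 without Garganega and 335 without Moscato bianco. The ranges were 145 to 170 and 133 to 185 at Touch, 177 to 203 and 137 to 173 at Soft, and 187 to 203 and 179 to 273 at Harv. Without Moscato bianco, 238 genes lay above at Pea, 203 above at Soft, and 185, 172 and 256 below at Touch, Soft and Harv. Without Vermentino the numbers were 170 and 193 above at Touch and Soft, and 236, 172, 173 and 273 below at Pea, Touch, Soft and Harv. At Touch, 156 lay above and 146 below without Garganega, and 163 above without Passerina. With a pseudocount of 5 there were 45 above and 46 below at Pea, and with 0.1 there were 263 and 406. The genes that did so at that stage and at no other numbered 72 above and 97 below at Pea, then 37 above and 29 below at Touch. The numbers were 46 above and 32 below at Soft, and 73 above and 77 below at Harv. At Touch the 37 genes above were the fewest of the 5 cultivars, the others having 71 to 192. With 1 value for each cultivar at a stage these are sizes without a test. A gene counted at a single stage could still lie outside the others by less than 2-fold at further stages.

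**Figure D4:**
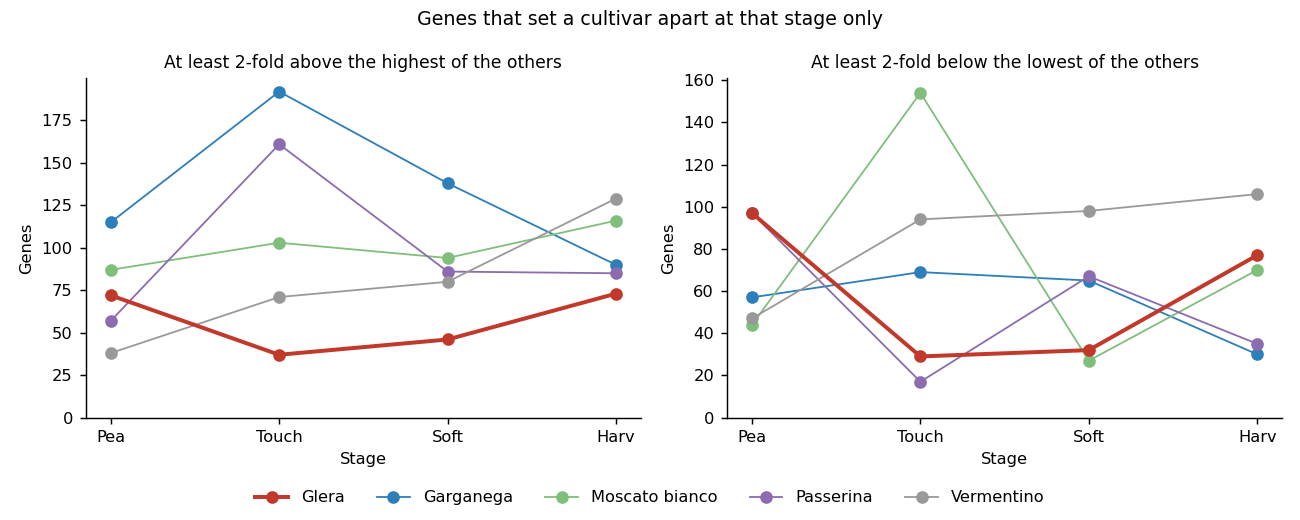
Number of genes (y axis) that lie at least 2-fold above the highest (left) or below the lowest (right) of the other 4 cultivars at the stage on the x axis and at no other stage; each line is a cultivar, with Glera thick and red. Glera runs through 72, 37, 46 and 73 genes above, and 97, 29, 32 and 77 below.

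At Pea, VIT_09s0002g06790 stood at 65.4 FPKM in Glera, against 3.13 to 6.64 FPKM in the others. By Touch they had reached 21.98 to 86.8 FPKM and spanned the 80.2 FPKM of Glera. In pea-sized berries Glera was thus 9.85-fold above the highest other cultivar. It had 58.1 FPKM at Soft, within the range of the others, and 28.2 FPKM at Harv, just below their 29.1 to 66.2 FPKM. VIT_18s0001g12860 stood at 14.5 FPKM in Glera at Pea, against 0.603 to 2.01 FPKM in the others, and was near 0 in all cultivars at Harv. In the other direction, VIT_07s0005g00830 stood at 0.905 FPKM in Glera at Pea and at 21.3 to 68.9 FPKM in the others. No cultivar exceeded 0.763 FPKM for it at Touch or later, so the Pea value of Glera was close to what the others had a stage later. VIT_00s0271g00060 showed 1.38 FPKM in Glera at Pea, against 18.3 to 38.7 FPKM in the others. Glera was below the others at 3 stages for this gene, which was also called lower over all stages (difference -1.52, limma adjusted p = 0.048). Glera had the highest ripening position at Pea (5.24%), with each cultivar placed on its own line. The part of that position in these differences was not tested.

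At Touch, VIT_03s0038g03130 stood at 80.0 FPKM in Glera and at 1.35 to 8.18 FPKM in the others. At Soft it had reached 173 FPKM in Glera, with Vermentino at 160 and Moscato bianco at 90.6 FPKM, while Garganega and Passerina stayed at 2.03 and 7.75 FPKM. Glera was thus 9.78-fold above the highest other cultivar at Touch and close to Vermentino a stage later. VIT_15s0048g01570 stood at 10.6 FPKM in Glera at Touch, against 0.0958 to 3.001 FPKM in the others. For this gene Glera was also above the others at Pea, Soft and Harv, by less than 2-fold on the log2(FPKM + 1) scale.

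On the low side at Touch, the joined row VIT_18s0001g14260,VIT_18s0001g14270 was among the most abundant in green berries. It stood at 856 FPKM in Glera at Touch, against 4870 to 7563 FPKM in the others. At Pea it had been at 4726 FPKM in Glera and at 4872 to 10449 FPKM in the others, and at Soft Glera, with 759 FPKM, lay within their 285 to 1228 FPKM. The Touch value of Glera was thus inside the range that the others had at Soft. VIT_13s0019g02180 had 4.34 FPKM in Glera at Touch, against 36.3 to 159 FPKM in the others. Glera was below the others at 3 stages for this gene, which was also called lower over all stages (difference -2.35, limma adjusted p = 0.00078).

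At Soft, VIT_08s0007g07000 still stood at 11.1 FPKM in Glera, while the others had 0.154 to 0.727 FPKM. At Touch it had been at 52.8 FPKM in Glera and 8.498 to 34.5 FPKM in the others, and at Harv it was at or below 0.114 FPKM everywhere. The joined row VIT_12s0035g00010,VIT_12s0035g00020 stood at 19.0 FPKM in Glera at Soft, against 0.705 to 2.17 FPKM in the others. On the low side, VIT_12s0057g00170 had 1.66 FPKM in Glera at Soft and 17.1 to 49.8 FPKM in the others, and VIT_12s0059g00310 had 0.807 FPKM against 10.3 to 14.5 FPKM. All these genes of the Soft stage were also called over all stages. In each of them Glera was outside the range of the others at 3 stages.

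At Harv, VIT_02s0025g00260 stood at 49.6 FPKM in Glera, against 2.14 to 6.76 FPKM in the others. At Soft it had been at 4.23 FPKM in Glera and 0.211 to 3.65 FPKM in the others. VIT_12s0035g02100 stood at 12.8 FPKM in Glera at Harv, against 0.283 to 2.39 FPKM in the others. It shares its scaffold, 12s0035, with VIT_12s0035g01760 and VIT_12s0035g01770. Over all stages, 6 of the 156 genes kept on that scaffold were called higher in Glera and 6 lower. On the low side, VIT_14s0128g00570 reached 21.1 to 398 FPKM at Harv in the others and 0.192 FPKM in Glera. VIT_00s0179g00250 had 0.780 FPKM in Glera at Harv, against 10.4 to 23.8 FPKM in the others. Except for VIT_14s0128g00570, these Harv genes were also called over all stages. Glera was above the others at 2 stages for VIT_02s0025g00260 and at 3 for VIT_12s0035g02100, and below them at 3 for VIT_00s0179g00250.

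The change from green to ripe stages differed between Glera and the other 4 cultivars in 100 genes, 0.48% of those tested. In 49 genes (0.235%) the change was more positive in Glera and in 51 (0.245%) more negative. The change was taken as the mean of Soft and Harv minus the mean of Pea and Touch, on log2(FPKM + 1), and tested with limma in a model with stage, cultivar and a ripe term for each cultivar. These p-values weigh a difference against unevenness within the green and within the ripe stages, not against the spread of changes among the other cultivars. The settings that bring in the spread among cultivars were run only for differences over all stages. The same ripening contrast gave 439 genes for Garganega, 265 for Moscato bianco and 205 each for Passerina and Vermentino. The median change over all genes was -0.30 in Glera and -0.34 in the mean of the others. Among the 49, the median change was 1.31 in Glera and -0.38 in the mean of the others. Among the 51 it was -1.32 in Glera and 0.00 in the others. Glera lay outside the range of the other 4 changes in 46 of the 49 and 48 of the 51 genes. The sign of its change differed from that of the mean of the others in 11 and 18 of them. A change of exactly 0 was counted as differing from either sign, so not all of these are opposite directions.

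Both numbers depended on the cultivars in the comparison. Without Passerina 19 genes were more positive and 30 more negative, and 39 of the 100 calls were kept. Without Garganega 32 were more positive and 43 more negative (53 kept), without Moscato bianco 57 and 46 (62 kept), and without Vermentino 84 and 70 (80 kept). Tested against a 2-fold limit, 1 gene was more positive and 2 were more negative.

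The most negative difference was that of VIT_03s0063g01290, which stayed near 0 in Glera at all stages. Glera had 0.146 FPKM at Pea, 0.0255 at Touch, 0.213 at Soft and 0.261 at Harv. In green berries the others were alike, at 0.0111 to 0.226 FPKM over both stages. At Soft they stood at 4.78 FPKM in Vermentino, 166 in Moscato bianco, 254 in Garganega and 470 in Passerina, and at Harv at 27.3 to 353 FPKM. Thus all 4 other cultivars were higher in ripe berries, by 3.66 to 8.63 (log2), while the change in Glera was 0.19. The difference of these changes was -6.18 (SE 0.83, limma adjusted p = 0.0115; 0.076 without Passerina).

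The joined row VIT_18s0075g00340,VIT_18s0075g00350 was also flat in Glera, at 0.605 FPKM at Pea, 1.14 at Touch, 0.915 at Soft and 0.223 at Harv. In the others it stood at 0.170 to 1.37 FPKM at Pea, 2.76 to 11.9 at Touch, 20.05 to 41.1 at Soft and 44.8 to 52.4 at Harv. The 4 other cultivars ended within a narrow band, and Glera at 0.497% of the lowest of them. The difference of the changes was -3.79 (SE 0.67, limma adjusted p = 0.037). The call was lost without Garganega (adjusted p = 0.0898), without Passerina (0.123), with no filter on low values (0.0516) and with a pseudocount of 0.1 (0.0822), always in the same direction.

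On the positive side, the genes with no value listed at 0 and at least 10 FPKM in the higher phase were led by VIT_03s0088g00060 and VIT_03s0088g00140, which share a scaffold and a pattern. The first stood in Glera at 0.872 FPKM at Pea, 0.497 at Touch, 42.8 at Soft and 96.7 at Harv. Garganega came nearest, with 11.9, 0.383, 45.8 and 53.8 FPKM. Vermentino stayed at or below 0.583 FPKM at all stages, and Passerina had 12.2, 6.01, 3.50 and 9.46 FPKM. From green to ripe this gene changed by 5.29 (log2) in Glera and 3.58 in Garganega. The change was 1.84 in Moscato bianco, -0.49 in Passerina and -0.02 in Vermentino. The difference of the Glera change from the mean of the others was 4.06 (SE 0.65, limma adjusted p = 0.0242). It was not called without Moscato bianco (adjusted p = 0.0523), Passerina (0.122) or Vermentino (0.0551).

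VIT_03s0088g00140 had 0.0411 FPKM at Pea, 0.0246 at Touch, 14.1 at Soft and 26.2 at Harv in Glera. Garganega again came nearest, with 1.08, 0.0225, 15.5 and 17.5 FPKM, and Vermentino stayed at or below 0.0259 FPKM. This gene changed by 4.29 (log2) in Glera and 3.58 in Garganega. The change was 1.11 in Moscato bianco, -0.19 in Passerina and 0.001 in Vermentino. The difference of the Glera change from the mean of the others was 3.17 (SE 0.34, limma adjusted p = 0.00363). The adjusted p was at most 0.0432 with any other cultivar left out. For both genes the levels of Glera and Garganega were close at Touch and Soft, while Glera was the lower of this pair at Pea and the higher at Harv.

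**Figure D5:**
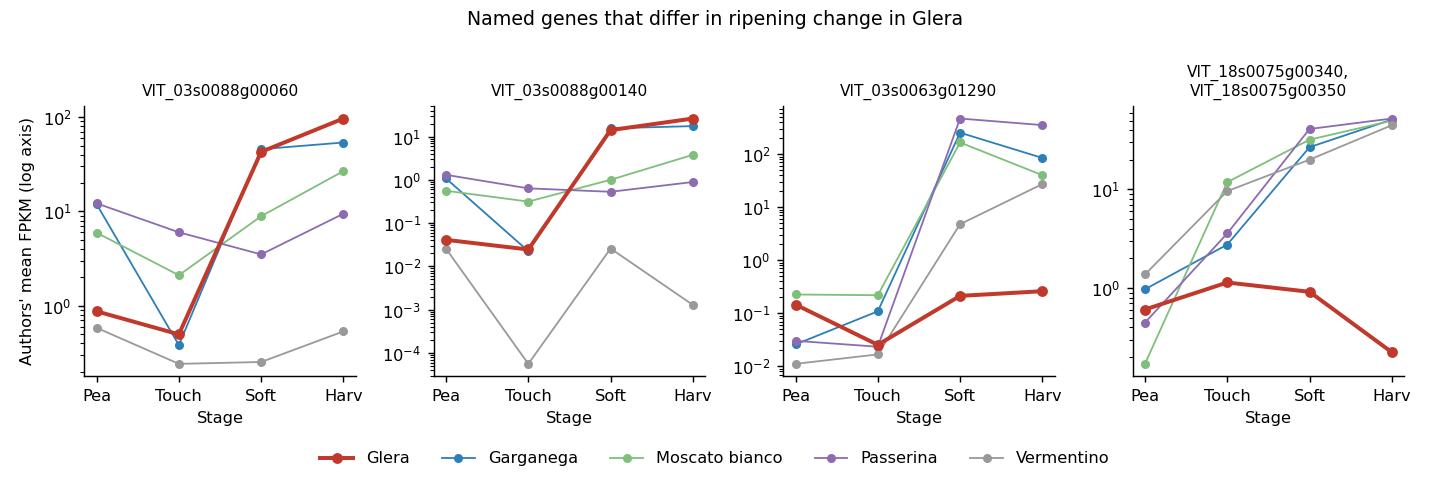
Authors' mean FPKM (log axis) at the 4 stages for the 2 genes with the most positive and the 2 with the most negative difference in ripening change among called genes with no value listed at 0, at least 10 FPKM on the higher side and the change of Glera outside the range of the others; each line is a cultivar, with Glera thick and red. In the right-hand panels Glera stays at or below 1.14 FPKM while the other 4 cultivars reach 27.3 to 353 FPKM and 44.8 to 52.4 FPKM at Harv.

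All 5 cultivars were at least 2-fold higher in ripe berries in 505 genes and at least 2-fold lower in 2547. Glera missed a change of that size that all 4 others showed in 49 genes that were higher and 164 that were lower in ripe berries; of these, 3 and 6 were called for the difference in change. In Garganega, Moscato bianco, Passerina and Vermentino 32 to 57 such higher and 163 to 260 such lower genes were missed. Glera alone changed by at least 2-fold upward in 79 genes and downward in 186, against 89 to 181 and 256 to 448 in the others. It had the fewest changes of its own in both directions. By steps, Glera alone moved at least 2-fold in 188 genes from Pea to Touch and 191 from Touch to Soft, the fewest of the 5 at each. From Soft to Harv the number was 404, between the 74 of Passerina and the 735 of Vermentino. From Pea to Touch, 193 genes moved at least 2-fold in all 4 others but not in Glera. That was the most of the 5, the others missing 53 to 165. From Touch to Soft Glera missed 134 such genes, against 77 to 310 in the others. From Soft to Harv it missed 38, the fewest, against 44 to 414.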

How the data were processed

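RNA of 60 pericarp libraries was sequenced, and the authors deposited 1 table of FPKM with 1 mean for each cultivar and stage, per the file header and name. TopHat2 2.0.6 and Cufflinks 2.0.2 are named in the submitters' processing notes; what each tool did, which build and annotation served, and when values were averaged is not given in the sources used here. Libraries were non-directional, per the labels' protocols, so overlapping and antisense genes cannot be told apart, and 608 rows join several identifiers. Depth is unknown, and no counting interval is given. All 20 columns were matched by name, with 0 left over.

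Genes with at least 1 FPKM in a column were kept (20833), and values were taken as log2(FPKM + 1), which understates the fold of low genes. Differences were tested with limma (version 3.58.1, R 4.3.3), using moderated statistics and a mean-variance trend, over all genes kept, with 12 residual degrees of freedom for the stage-paired contrast and 8 for the ripening change. The code was tested on simulated data. The members, rules and tests were chosen with earlier results of these data known. Without names, at most 2 identifiers in each direction are given for each comparison: those with the largest difference or margin among genes with at least 10 FPKM on the higher side, Glera outside the range of the others, and no value listed at 0 (for a single stage, none at that stage). Gene lists and tissue markers that needed names were not run, so the labelled tissue was not checked. Alternatives covered the pseudocount, the filter, scaling, values of 0, the model, and leaving out each other cultivar and, for differences over all stages, each stage.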

Additional observations from a re-analysis of the deposited data

Results flagged for a closer look

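The 5 cultivars were searched for a value far from the rest in 17 sets of summary values, and 2 sets had one; chance gives about 1 in 20. Glera, with 23 genes at least 2-fold above all other cultivars at every stage, stood above the 12 to 15 genes of the others. Of the 23, 11 had no value listed at 0, and a pseudocount of 5 left 3 genes. The other cultivars were not counted under these settings. In the step from Soft to Harv, Glera had 2487 genes with a change of 2-fold or more, while Passerina had 913 and was set apart from the rest as the lowest.

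The difference between Glera and the other cultivars changed between green and ripe stages in 100 genes by the test of that change. Of these, VIT_03s0088g00060 had a difference of 4.06, VIT_03s0088g00140 of 3.17, VIT_03s0063g01290 of -6.18 and the joined row VIT_18s0075g00340,VIT_18s0075g00350 of -3.79, all on the log2(FPKM + 1) scale.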

How the results depend on the processing

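No paired analysis was possible because the columns are means and carry no replicate numbers by which libraries could be paired; the pairing of stages is part of the reported test. Of the 604 genes called over stages, 0 were called in the opposite direction under any alternative; 589 kept their call with equal medians, 574 with quantile normalization and 468 without genes that hold a 0. A pseudocount of 0.1 gave 631 higher and 757 lower genes, a pseudocount of 5 gave 76 and 105, and a test against a 2-fold change 51 and 54. With the spread among the other cultivars in the residual 148 and 155 were called, and with cultivar as a random effect 51 and 40. With 1 cultivar or stage left out, the numbers ran from 219 to 329 higher and 263 to 367 lower. For the ripening change, a pseudocount of 5 gave 34 more positive and 27 more negative genes, 41 of these 61 among the original 100; leaving out genes with a 0 gave 28 more positive and 32 more negative, and a test against a 2-fold change 1 and 2. With 1 cultivar left out they ran from 19 to 84 and from 30 to 70. Margins at all 4 stages were met by 49 genes above and 50 below with a pseudocount of 0.1, by 3 and 7 with a pseudocount of 5, by 11 above without genes that hold a 0, and by 26 to 38 above and 22 to 41 below with a cultivar or stage left out. Margins at exactly 1 stage were met by 374 and 590 genes with a pseudocount of 0.1, 88 and 68 with 5, and 305 to 386 above and 299 to 462 below with a cultivar left out, against 228 and 235 as reported. Fewer cultivars or stages make a margin easier to meet, and a larger pseudocount shrinks differences of low genes. The test against a 2-fold change also left the 4 named ripening differences uncalled (adjusted p of 0.0846 to 0.942).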
